A study of Mus musculus with 6 samples.

Results

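Desmosomes are the junctions that rivet neighbouring keratinocytes to one another and tie each cell's keratin filaments to its membrane. Desmosomal cadherins (desmogleins and desmocollins) bind between cells, the armadillo proteins plakoglobin and plakophilins gather on their tails, and desmoplakin links that plaque to keratin. In stratified epidermis the desmosome changes its make-up as cells move outward: Dsg3 and Dsc3 are known as basal-type cadherins, and the Dsg1 genes and Dsc1 as suprabasal-type ones. Described here are 10 genes of this junction, out of 30386 genes in the deposited table. They were chosen by name from its symbols, with no measured value in the rule but with earlier results of these data known. They are the cadherin genes Dsg1a, Dsg3, Dsc1 and Dsc3, the plaque genes Jup, Pkp1, Pkp3 and Dsp, and Perp and Cdsn.

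The samples were epidermis, freed from the dermis with Dispase and dissociated with Accutase, from dorsal skin of mouse embryos at E18.5. There were 3 libraries of the genotype labelled p63alphaKO and 3 wild-type (WT) libraries, and no other treatment is named in the labels. The transcription factor p63, encoded by Trp63, drives the epidermal programme. Its alpha isoforms carry the longest carboxy terminus, where the mutations of AEC syndrome, a disease of fragile skin, lie. Neither the making of the p63alphaKO allele nor the number of embryos behind a library is stated in the labels, so p-values measure only the spread between libraries, which may be technical.

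Reads came from the 3' ends of mRNAs and are given in CPM, reads scaled to a common library total. The libraries held between 3350442 and 3539604 reads in p63alphaKO and between 2564407 and 4474764 reads in WT. Because each mRNA gives reads from its end, CPM is not scaled to gene length. Levels are compared between libraries, as are ratios and sums of genes taken within a library. A gene's share of such a sum is a share of CPM. Fold changes divide p63alphaKO by WT, were taken after adding 1 CPM, are given as log2, and come with a standard error (SE) and 95% interval from limma. The fit covered the 7464 genes whose mean reached 10 CPM. All 10 desmosome genes passed that minimum, and each of them had a mean above 10 CPM in both groups. Markers of dermis, muscle and blood were lower in p63alphaKO than in WT, and their values stand with those of the epidermal layers.

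None of the 10 desmosome genes was called as changed. A call was an adjusted p (Benjamini-Hochberg, limma) under 0.05, which 1.65% of all tested genes reached (0.469% higher and 1.18% lower in p63alphaKO). At an unadjusted p under 0.05, 2 of the 10 passed (Dsc3 and Pkp1), against 15.6% of all tested genes, and the count of calls over the 10 was also 0 with edgeR and with DESeq2 on the recovered reads, which called 1.10% and 4.25% of all tested genes. The median log2 fold change of the 10 was -0.13 (7 negative, 3 positive), beside -0.085 over all tested genes, 59.8% of which were negative. With TMM factors 6 of the 10 were negative, and with upper quartile factors 4 were, while the median of all genes moved to 0.020 and 0.049. The summed level of the 10 genes was 11375, 10739 and 11192 CPM in p63alphaKO replicates 1, 2 and 3, and 10808, 12820 and 12838 CPM in WT replicates 1, 2 and 3, so the groups overlapped.

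Promoter sequence is shown for Dsp and Cdsn, because p63 binds DNA through the p53-family motif of 10 bases and these are among the genes matched in the RefSeq promoter table (GRCm38.p6, 250 bases before to 50 after the start, 5' to 3' on the gene's strand). Capitals mark a match to that motif, which reads the same pattern on both strands. The first is Dsp (chr13:38151044-38151343, plus strand). The others are Cdsn (plus strand), at the start that GENCODE also gives (chr17:35551878-35552177) and at a start further upstream (chr17:35542851-35543150).
Dsp: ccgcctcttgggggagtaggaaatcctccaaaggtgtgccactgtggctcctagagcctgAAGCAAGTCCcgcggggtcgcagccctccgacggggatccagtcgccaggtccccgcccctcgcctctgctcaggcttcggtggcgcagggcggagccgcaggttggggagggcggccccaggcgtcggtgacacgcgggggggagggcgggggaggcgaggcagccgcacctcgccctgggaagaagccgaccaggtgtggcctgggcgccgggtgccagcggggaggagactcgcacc
Cdsn: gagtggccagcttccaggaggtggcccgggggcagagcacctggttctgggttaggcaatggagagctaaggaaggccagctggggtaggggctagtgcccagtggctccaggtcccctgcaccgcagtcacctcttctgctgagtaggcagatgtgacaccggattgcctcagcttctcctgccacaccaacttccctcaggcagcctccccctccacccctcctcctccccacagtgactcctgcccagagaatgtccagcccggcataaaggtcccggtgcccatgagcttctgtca
Cdsn, upstream start: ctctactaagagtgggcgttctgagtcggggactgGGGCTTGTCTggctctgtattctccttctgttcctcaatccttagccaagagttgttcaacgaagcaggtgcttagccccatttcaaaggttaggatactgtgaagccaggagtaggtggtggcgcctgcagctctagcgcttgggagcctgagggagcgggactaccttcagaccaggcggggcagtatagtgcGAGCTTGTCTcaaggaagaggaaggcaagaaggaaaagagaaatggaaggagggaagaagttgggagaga
The Dsp window held 1 half-site match, 190 bases before the start. The Cdsn window at the GENCODE start held 0, and the window at the upstream start held 2, at 215 and 20 bases before it. The Jup promoter (chromosome 11) held 0. Of all 32851 promoters of this length, 8.36% held at least 1 match and 0.359% held 2 or more. A match describes these letters only, and binding was not measured.

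The 4 cadherin genes lie in 1 cluster on chromosome 18 (mm10). Dsc3 (19960930 to 20002351) and Dsc1 (20084184 to 20114871) are on the minus strand, and Dsg1a (20310811 to 20343350) and Dsg3 (20510274 to 20547459) on the plus strand. None of these 4 has an exon that overlaps a gene on the other strand. The basal-type genes Dsc3 and Dsg3 had fold changes of opposite sign, and both suprabasal-type genes had negative fold changes.

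Dsc3, the basal-type desmocollin, had the lowest log2 fold change of the 10 genes. It was at 210.0, 202 and 236 CPM in p63alphaKO replicates 1, 2 and 3, and at 233, 376 and 382 CPM in WT replicates 1, 2 and 3. The groups overlapped by a narrow margin, since WT replicate 1 lay just under p63alphaKO replicate 3. The means were 216 ± 17.9 CPM in p63alphaKO and 330.0 ± 84.1 CPM in WT (SD, n = 3 each), with a log2 fold change of -0.58 (SE 0.20, 95% interval -0.999 to -0.15, limma adjusted p = 0.162). WT replicate 1 decided the call: without it the value was -0.81 (limma adjusted p = 0.0259), and over all 15 alternatives the adjusted p lay between 0.0259 and 0.374.

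Dsg3, the basal-type desmoglein and the target of autoantibodies in pemphigus vulgaris, was at 16.7, 18.1 and 14.3 CPM in p63alphaKO and at 12.5, 12.3 and 7.56 CPM in WT, in replicate order. All 3 p63alphaKO libraries lay above all 3 WT libraries. The means were 16.3 ± 1.89 CPM in p63alphaKO and 10.8 ± 2.78 CPM in WT (SD, n = 3 each), from between 48 and 62 reads per p63alphaKO library and between 24 and 55 reads per WT library. The log2 fold change of 0.58 had a wide interval at that depth (SE 0.35, -0.17 to 1.34, limma adjusted p = 0.462), and it was 0.37 without WT replicate 3.

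Dsg1a encodes a suprabasal desmoglein, of the Dsg1 group that exfoliative toxins of Staphylococcus cleave. Its level was 425, 335 and 323 CPM in p63alphaKO, and 364, 456 and 510.3 CPM in WT. The means were 361 ± 55.8 and 443 ± 74.2 CPM, p63alphaKO first (SD, n = 3 each), and the groups overlapped (log2 fold change -0.29, SE 0.18, interval -0.67 to 0.085, limma adjusted p = 0.463). Mice carry several copies of the Dsg1 gene, and reads shared by copies may be lost or split. Of the 50-base words of the Dsg1a transcript, 31.6% also occur in Dsg1b, but 0 of the 451 words of its last 500 bases do, and 29 of the 451 words (6.43%) at the end of Dsg1b occur in Dsg1a. Dsg1b was at 205, 176 and 219 CPM in p63alphaKO, and 145, 262 and 216 CPM in WT, with a log2 fold change of -0.019 (limma adjusted p = 0.983). Summed before the fit, an alternative chosen after seeing the data, Dsg1a and Dsg1b gave -0.20 (limma adjusted p = 0.645).

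Dsc1, the suprabasal desmocollin, was at 502, 506 and 514 CPM in p63alphaKO, and at 400, 551 and 787 CPM in WT. The p63alphaKO libraries lay close together and inside the WT range. The means were 508 ± 5.90 CPM in p63alphaKO and 579 ± 195 CPM in WT (SD, n = 3 each), and the log2 fold change was -0.14 (SE 0.21, interval -0.57 to 0.30, limma adjusted p = 0.812). Its sign rested on WT replicate 3, without which the value was 0.11, and it was 0.001 with upper quartile factors.

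**Figure D1:**
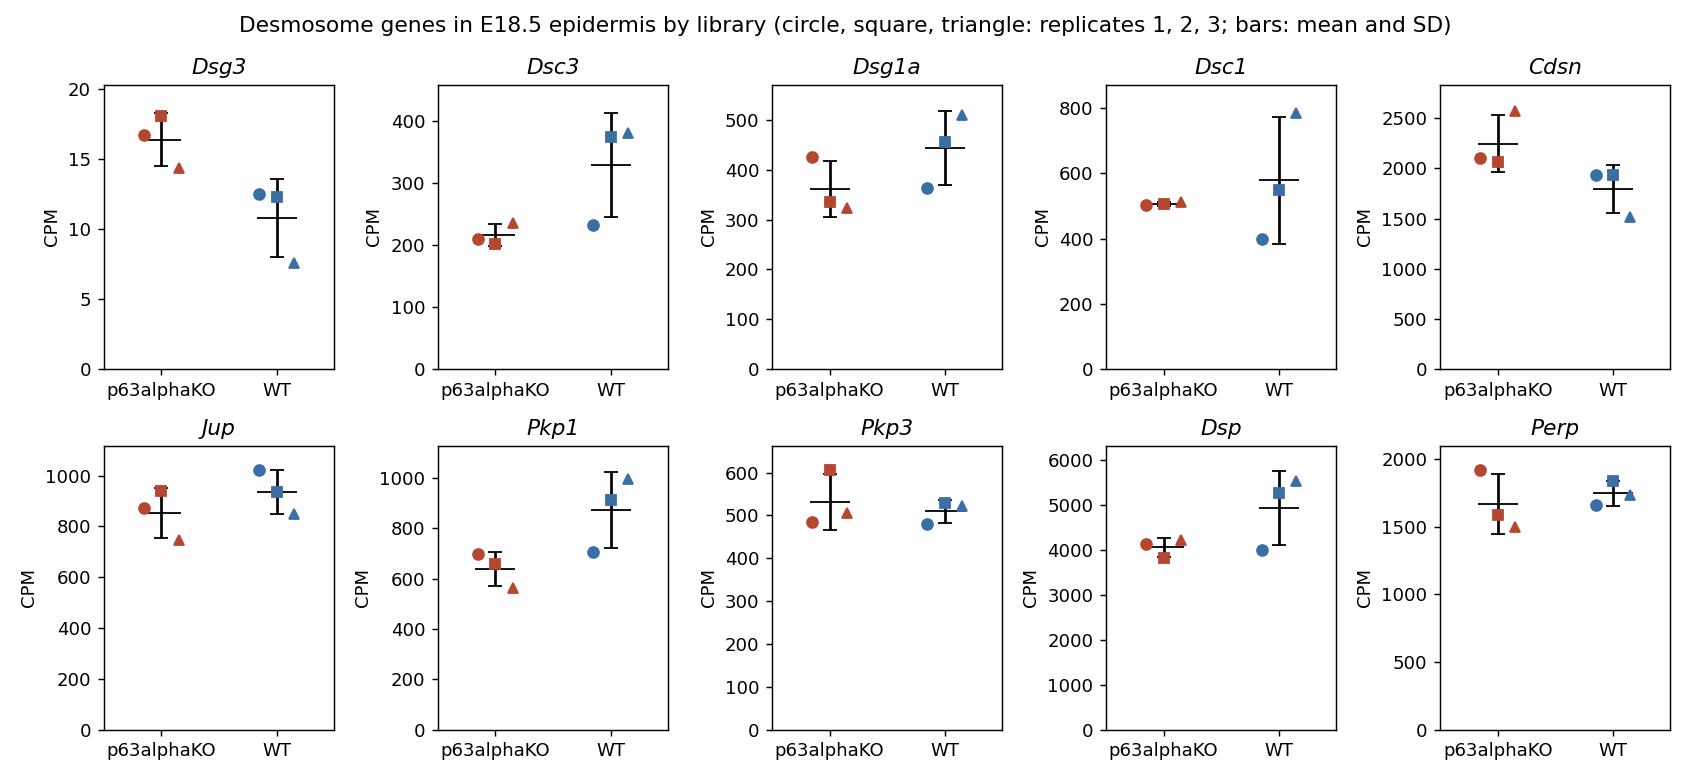
Level of each of the 10 desmosome genes in CPM (vertical axes, each from 0) in the 3 p63alphaKO libraries (left, red) and the 3 WT libraries (right, blue), with circle, square and triangle for replicates 1, 2 and 3 and bars for the mean and SD. The groups do not overlap for Dsg3, Cdsn and Pkp1, and the p63alphaKO values of Dsc1 lie between 502 and 514 CPM while those of WT lie between 400 and 787 CPM.

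Setting suprabasal-type against basal-type cadherins within each library cancels library scaling. The desmocollin pair and the desmoglein pair differed in opposite directions between the genotypes. Dsc1 over Dsc3 was 2.39, 2.51 and 2.18 in p63alphaKO replicates 1, 2 and 3, and 1.72, 1.47 and 2.06 in WT replicates 1, 2 and 3, so the p63alphaKO libraries were all higher. On the log2 scale, with 1 CPM added to each gene, the mean was 1.23 ± 0.10 in p63alphaKO and 0.79 ± 0.25 in WT (SD, n = 3 each), a difference of 0.44.

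Dsg1a over Dsg3 was 25.5, 18.6 and 22.6 in p63alphaKO, and 29.2, 37.1 and 67.5 in WT, so the p63alphaKO libraries were all lower. The log2 mean was 4.38 ± 0.23 in p63alphaKO and 5.25 ± 0.59 in WT (SD, n = 3 each), a difference of -0.88. For both ratios the two-sided exact permutation test gave p = 0.1, also 0.1 after adjustment over the 2 ratios, which is the smallest that 3 libraries against 3 allow. Neither could therefore pass the threshold of 0.05. The Dsg1a over Dsg3 difference was -0.55 without WT replicate 3, and -0.78 with Dsg1b added to Dsg1a. It rests on few Dsg3 reads, between 24 and 55 per WT library, with 24 in WT replicate 3.

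Summed over both families, (Dsc1 + Dsg1a) over (Dsc3 + Dsg3) was 4.09, 3.82 and 3.34 in p63alphaKO, and 3.11, 2.59 and 3.33 in WT. p63alphaKO replicate 3 and WT replicate 3 lay next to each other at the border of the groups. The basal-type sum was 232 ± 16.0 CPM in p63alphaKO and 341 ± 82.6 CPM in WT, and the suprabasal-type sum 869 ± 50.9 CPM in p63alphaKO and 1022 ± 267 CPM in WT (SD, n = 3 each). Dsc3 makes up nearly all of the basal-type sum, so the summed ratio follows the desmocollin pair and hides the opposite difference in the desmoglein pair. No test was run on these sums.

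**Figure D2:**
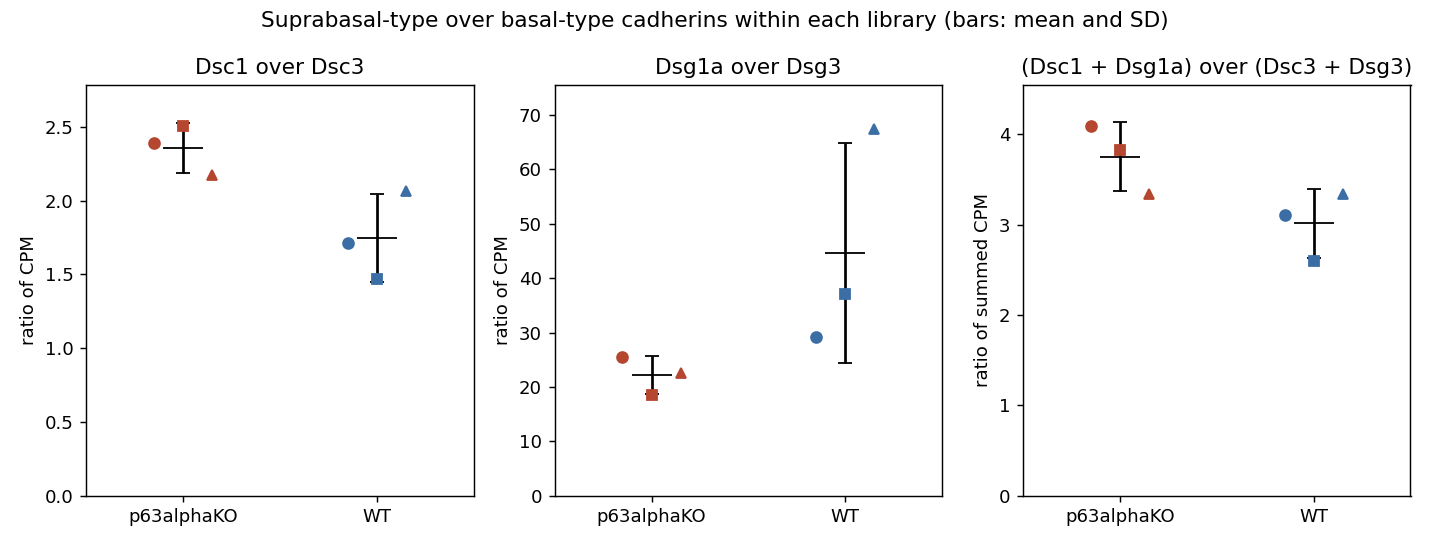
Ratio of CPM within each library (vertical axes, from 0) for Dsc1 over Dsc3, Dsg1a over Dsg3, and the summed suprabasal-type over the summed basal-type cadherins, in p63alphaKO (left, red) and WT (right, blue), with the mean and SD. The p63alphaKO libraries lie above the WT libraries in the first panel, at 2.18 to 2.51 against 1.47 to 2.06, and below them in the second, at 18.6 to 25.5 against 29.2 to 67.5.

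Among the plaque genes, the groups did not overlap for Pkp1 and overlapped for Pkp3, Jup and Dsp. Over all tested genes, the groups did not overlap for 21.0%, with p63alphaKO above WT for 7.60% and below WT for 13.4%. Of the 10 desmosome genes 3 had groups without overlap, Dsg3 and Cdsn with p63alphaKO above and Pkp1 with p63alphaKO below.

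Pkp1 encodes plakophilin 1 (chromosome 1, 135871395 to 135919207, minus strand), the plaque protein whose loss in humans gives skin fragility with ectodermal dysplasia. It was at 697, 657 and 563 CPM in p63alphaKO, and at 706, 912 and 998 CPM in WT. The margin between the groups was small, since WT replicate 1 lay just above p63alphaKO replicate 1. The means were 639 ± 69.0 CPM in p63alphaKO and 872 ± 150 CPM in WT (SD, n = 3 each), 1.36-fold lower in p63alphaKO on the fitted scale (log2 fold change -0.44, SE 0.17, interval -0.80 to -0.081, limma adjusted p = 0.215). The value stayed negative under all 15 alternatives, between -0.58 without WT replicate 1 and -0.30 with upper quartile factors, and none of them gave a call.

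Pkp3, which encodes plakophilin 3 (chromosome 7, 141078218 to 141090510, plus strand), was at 484, 607 and 506 CPM in p63alphaKO, and at 479, 529 and 522 CPM in WT. The groups overlapped, with a log2 fold change of 0.055 (SE 0.15, interval -0.27 to 0.38, limma adjusted p = 0.911), and -0.043 without p63alphaKO replicate 2. Jup encodes plakoglobin, which serves in adherens junctions too (chromosome 11, 100368958 to 100397763, minus strand). Its levels were 874, 941 and 747 CPM in p63alphaKO, and 1021, 935 and 850.4 CPM in WT, overlapping, with a log2 fold change of -0.13 (SE 0.15, interval -0.46 to 0.19, limma adjusted p = 0.735). It was 0.002 with upper quartile factors.

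Dsp, which encodes desmoplakin, the link between plaque and keratin filaments (chromosome 13, 38151294 to 38198577, plus strand), was at 4141, 3826 and 4226 CPM in p63alphaKO, and at 3997, 5279 and 5530 CPM in WT. WT replicate 1 lay among the p63alphaKO libraries and the other two WT libraries above them. The means were 4064 ± 211 CPM in p63alphaKO and 4935 ± 822 CPM in WT (SD, n = 3 each), with a log2 fold change of -0.27 (SE 0.16, interval -0.61 to 0.074, limma adjusted p = 0.458). Exons of Dsp overlap an annotated gene on the other strand (Gm10129), and no source used here states whether counting used the strand, so reads of the pair may be mixed.

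Perp encodes a tetraspan membrane protein needed for desmosomes in mouse skin, and is a textbook target of p63. Perp (chromosome 10, 18845020 to 18857073, plus strand) was at 1918, 1584 and 1493 CPM in p63alphaKO, and at 1661, 1839 and 1732 CPM in WT. The WT values lay inside the p63alphaKO range. The log2 fold change was -0.074 (SE 0.15, interval -0.39 to 0.25, limma adjusted p = 0.870), positive in 5 of 15 alternatives, among them TMM and upper quartile factors (0.033 and 0.063).

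Cdsn encodes corneodesmosin, a secreted glycoprotein added to desmosomes in the granular layer as they turn into corneodesmosomes. Cdsn (chromosome 17, 35552128 to 35557180, plus strand) was at 2107, 2063 and 2570.3 CPM in p63alphaKO, and at 1935, 1931 and 1519 CPM in WT. No WT library reached the lowest p63alphaKO library. The means were 2247 ± 281 CPM in p63alphaKO and 1795 ± 239 CPM in WT (SD, n = 3 each), 1.25-fold on the fitted scale (log2 fold change 0.33, SE 0.16, interval -0.014 to 0.66, limma adjusted p = 0.344), positive in all 15 alternatives and called in none.

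**Figure D3:**
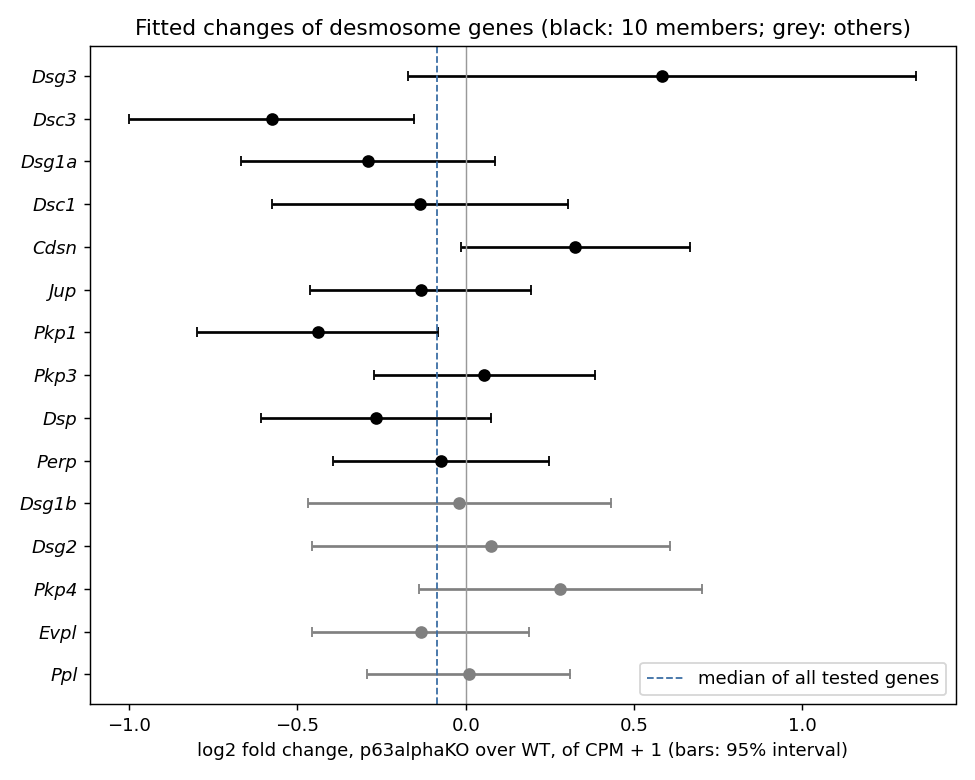
Log2 fold change of p63alphaKO over WT on CPM + 1 (horizontal axis) with its 95% interval for the 10 desmosome genes (black) and the 5 other tested desmosome and plakin genes (grey), with 0 as a solid line and the median of all tested genes, -0.085, as a dashed line. The intervals of Dsc3 (-0.999 to -0.15) and Pkp1 (-0.80 to -0.081) lie below 0, and that of Cdsn reaches -0.014.

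The spread within WT was wider than within p63alphaKO for most of these genes. The coefficient of variation was smaller in p63alphaKO for 7 of the 10, beside 60.6% of all tested genes. It was 1.16% in p63alphaKO and 33.7% in WT for Dsc1, and 5.19% and 16.7% for Dsp in the same order. Jup, Pkp3 and Perp went the other way, with 11.5%, 12.3% and 13.4% in p63alphaKO and 9.13%, 5.30% and 5.14% in WT. WT replicate 1 was the lowest of the 3 WT libraries for Dsc1, Dsc3, Dsg1a, Dsp, Pkp1, Pkp3 and Perp.

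Layer markers bear on the same libraries. The summed level of 5 basal markers (Krt5, Krt14, Itga6, Itgb4 and Col17a1) was between 4043 and 5086 CPM in p63alphaKO, and 2537, 4424 and 4057 CPM in WT replicates 1, 2 and 3, so WT replicate 1 was the lowest there as well. The fold changes of all 5 were positive (median 0.37) and none was called, while Krt15, a basal keratin outside that list, fell. With Krt15 added, the sum was 5461, 4383 and 4929 CPM in p63alphaKO, and 3279, 5996 and 5785 CPM in WT. The 4 spinous markers summed to between 73718 and 89214 CPM in p63alphaKO and between 74350 and 94399 CPM in WT, and the 5 granular markers to between 37731 and 51119 CPM and between 37619 and 46687 CPM in the same order. Markers of all 3 layers were abundant, as the label epidermis has it. In bulk tissue, fewer cells of a layer and less RNA per cell cannot be told apart.

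All tested markers of dermis, skeletal muscle and blood had negative fold changes. Most were called lower in p63alphaKO, as were 1.18% of all tested genes. Of 7 tested fibroblast and dermis markers 6 were called lower (summed level between 314 and 623 CPM in p63alphaKO and between 2134 and 4767 CPM in WT). Of 5 tested skeletal muscle markers 4 were called lower (between 34.4 and 70.8 CPM and between 269 and 1910 CPM, p63alphaKO first). Of 4 tested blood markers 3 were called lower (between 559 and 1766 CPM and between 1903 and 3440 CPM, p63alphaKO first). Those not called were Postn (log2 fold change -0.69), Ckm (-2.04) and Hba-a1 (-1.27). Lum among the first list and Ckm and Myl1 among the second passed the minimum only through their WT libraries, and Lum and Myl1 are among those called lower. Of 5 tested hair follicle markers, from cells that build desmosomes too, Krt71 fell (log2 fold change -2.15, limma adjusted p = 0.00731). The other 4 were not called and had values of both signs: Foxn1 -1.28, Lhx2 0.26, Sox9 0.63 and Krt79 0.88. Krt71 and Foxn1 passed the minimum only through WT. The part of these markers in the desmosome values was not tested. The endothelial list of 4 and the immune list of 5 had 0 tested members, with Cd3g at 0 in all libraries. Of the 3 markers of heart, which also builds desmosomes, Myh6 and Nppa were at 0 in all libraries. Actc1 was at 5.93, 1.75 and 2.09 CPM in p63alphaKO, and 25.7, 7.15 and 22.04 CPM in WT, without overlap (log2 fold change -2.14, limma adjusted p = 0.0819), and passed the minimum only through WT. Melanocyte markers summed to between 303 and 438 CPM in p63alphaKO and between 174 and 293 CPM in WT, and 0 of the 2 tested were called.

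**Figure D4:**
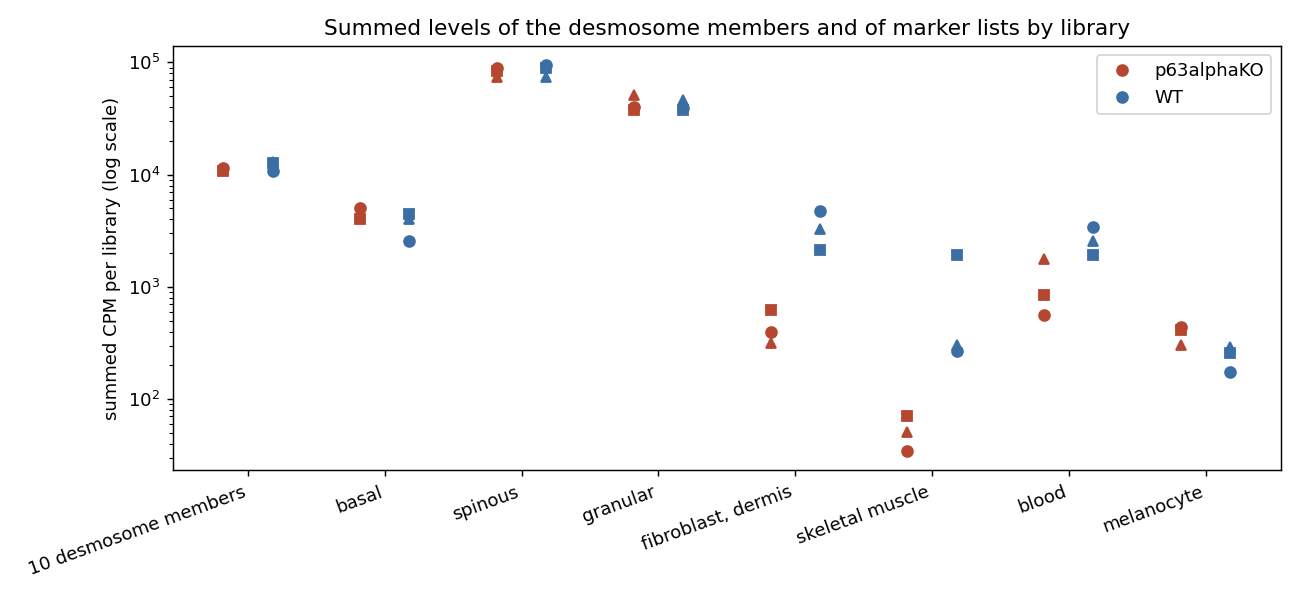
Summed CPM per library (vertical axis, log scale) of the 10 desmosome genes and of marker lists of epidermal layers and other tissues, in p63alphaKO (left of each pair, red) and WT (right, blue), with circle, square and triangle for replicates 1, 2 and 3. Fibroblast, muscle and blood markers lie lower in each p63alphaKO library than in each WT library, while the desmosome sum lies between 10739 and 12838 CPM in all 6.

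Of 9 further desmosome and plakin genes, 5 passed the minimum for testing and none was called. Ppl and Evpl, which encode periplakin and envoplakin, plakins that join desmosomes to the cornified envelope, had log2 fold changes of 0.008 and -0.13 (limma adjusted p = 0.988 and 0.733), and Ppl lay between 727 and 792 CPM in p63alphaKO and between 738 and 775 CPM in WT. Pkp4, a plakophilin relative, had a value of 0.28 (limma adjusted p = 0.548), and Dsg2, the desmoglein of simple epithelia and heart, one of 0.075 (limma adjusted p = 0.927) at 31.5 ± 2.64 CPM in p63alphaKO and 30.3 ± 6.61 CPM in WT (SD, n = 3 each). The median of the 5 was 0.008.

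The other 4 were near or at the limit of detection. Dsc2 was at 0.85, 2.62 and 3.28 CPM in p63alphaKO and 6.23, 3.80 and 0.94 CPM in WT. Pkp2 had 0, 8 and 0 reads in p63alphaKO and 1, 4 and 0 reads in WT, and Dsg1c had 0 reads in each p63alphaKO library and 1 read in all of WT. Dsg4, the desmoglein of the hair cortex, was at 0 in all 6 libraries, which at 3 reads per library allows up to between 0.847 and 0.895 CPM in p63alphaKO and between 0.670 and 1.17 CPM in WT. These limits cover counting error only.

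The keratins that desmosomes anchor included 2 called genes, beside calls for 1.65% of all tested genes. Their list was chosen with earlier results of these data known. Of 6 tested, Krt77, a suprabasal keratin, rose (440.4, 528 and 702 CPM in p63alphaKO, and 144, 152 and 152 CPM in WT, log2 fold change 1.87, limma adjusted p = 0.000219). Krt15, a basal keratin, fell (375, 340.1 and 368 CPM in p63alphaKO, and 742, 1572 and 1728 CPM in WT, log2 fold change -1.80, limma adjusted p = 0.00164). The other 4 tested keratins were not called, and the median of the 6 was 0.15. Each of these changes was larger than that of any desmosome gene.

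Proteases and inhibitors that govern the breakdown of corneodesmosomes had 0 called of 9 tested, with 8 positive fold changes and a median of 0.34. Their summed level was 8809, 9514 and 11138 CPM in p63alphaKO, and 7968, 7149 and 7988 CPM in WT, without overlap. That sum pools proteases with an inhibitor, and Spink5 and Klk7 made up most of it. Their means were 4723 and 3001 CPM in p63alphaKO, and 3641 and 2354 CPM in WT. Taken singly, 2 of the 9 had p63alphaKO above WT without overlap, beside 7.60% of all tested genes. Spink5, the inhibitor whose loss causes Netherton syndrome in humans, was at 4391, 4587 and 5191 CPM in p63alphaKO and 3528, 3180.1 and 4216 CPM in WT (log2 fold change 0.38, limma adjusted p = 0.247). The kallikrein gene Klk6 was at 11.9, 16.6 and 28.6 CPM in p63alphaKO and 0.39, 5.81 and 7.24 CPM in WT (log2 fold change 2.14, limma adjusted p = 0.106). Klk6 passed the minimum only through its p63alphaKO libraries, and DESeq2 alone among the 13 alternatives that tested it made a call (adjusted p = 0.00696).

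Adherens junction genes, on which desmosome assembly depends, had 0 called of 6 tested and a median of 0.15. Cdh1, which encodes E-cadherin, was at 1273, 1665 and 1486 CPM in p63alphaKO, and 1220.0, 873 and 1044 CPM in WT, without overlap (log2 fold change 0.50, SE 0.17, interval 0.14 to 0.86, limma adjusted p = 0.146). Ctnna1, which encodes alpha-catenin, was at 231, 228 and 231 CPM in p63alphaKO and 153, 227 and 172 CPM in WT (log2 fold change 0.34, limma adjusted p = 0.392), and its exons overlap Lrrtm2 on the other strand. Among 7 tested regulators and partners of desmosomes, with a median of 0.10, only Trp63 was called, beside 1.65% of all tested genes. It was at 143, 146 and 136 CPM in p63alphaKO, and 63.9, 71.7 and 87.2 CPM in WT (log2 fold change 0.93, limma adjusted p = 0.0192). Reads of all isoforms are counted together there, so the targeted isoforms were not checked by it. Without p63alphaKO replicate 1, 2 or 3 its log2 fold change stayed between 0.91 and 0.96, and its limma adjusted p was between 0.0860 and 0.0955.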

How the data were processed

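Expression was read by 3' digital mRNA sequencing of total RNA from E18.5 mouse epidermis (3 p63alphaKO and 3 WT libraries, grouped by their titles). STAR, HTSeq and the build mm10 are named in the submitters' processing notes; versions, annotation and strand setting are not stated. The labels and the series text name different RNA kits. The deposited values are CPM: each column sums to between 999157 and 999401, scaled by the authors to the library total. Values were whole multiples of 1 read in 100% of cases within 0.0055 CPM, which gave the reads per library, and 10 CPM stands for between 25.7 and 44.8 reads.

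Genotype was fitted as the only term, on log2(CPM + 1), by limma-trend (version 3.58.1 under R 4.3.3), two-sided, over the 7464 genes whose mean reached 10 CPM, with adjustment over all of them. The 2 cadherin ratios were compared by exact permutation. Alternatives were other pseudocounts, minimums and scalings, each library left out, a replicate block, and edgeR 4.0.16 and DESeq2 1.42.0 on the recovered reads. The fit was tested on simulated data.

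The named genes were the 10 desmosome genes, all of a list of 9 related genes, and from each of 4 further lists the called members or otherwise the 2 with the smallest p. Members and lists were chosen with earlier results of these data known. Of 11 listed proteases and inhibitors, 10 were matched in the table. Positions are from GENCODE mouse release 21 (GRCm38), where 30271 of 30386 gene IDs were found. Promoters are from RefSeq on GRCm38.p6, and those of 3 of the 10 genes (Dsp, Jup and Cdsn) were used. Promoters on chromosome 18, where the cadherin genes lie, were left out.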

Additional observations from a re-analysis of the deposited data

How the results depend on the processing

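Dsp, Pkp1, Dsc3, Dsg1a, Dsg3 and Cdsn kept their sign under every alternative run on them, and the only call among the 10 genes was Dsc3 without WT replicate 1. Both cadherin ratios kept their sign under each pseudocount, with any 1 library left out and with Dsg1b added. Signs turned for small values: with upper quartile factors Jup was 0.0020, Dsc1 0.0011, Perp 0.063, Dsg1b 0.12 and Evpl 0.0025; with TMM factors Perp was 0.033 and Dsg1b 0.087; edgeR gave 0.010 for Perp and 0.038 for Dsg1b, and DESeq2 0.025 and 0.053. With 1 library left out, Pkp3 lay between -0.043 and 0.12, Dsc1 between -0.37 and 0.11, Perp between -0.18 and 0.00054, Dsg1b between -0.26 and 0.17, Dsg2 between -0.10 and 0.21 and Ppl between -0.020 and 0.041. The cause of these turns was not tested.

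Over all genes, 123 were called, 35 higher and 88 lower in p63alphaKO. With 1 library left out there were between 38 and 179, with between 3 and 88 higher and between 35 and 91 lower. A minimum mean of 50 CPM, which tests fewer genes, left 36 (12 higher, 24 lower), DESeq2 called 317 (152 higher, 165 lower), edgeR 82 (21 higher, 61 lower), TMM factors 113 (48 higher, 65 lower) and upper quartile factors 133 (69 higher, 64 lower). No pairing of the libraries by replicate number is stated in the labels. Same-numbered deviations correlated at -0.023, 0.066 and -0.11, and differently numbered ones between -0.13 and 0.15. With so few libraries per group, these values cannot decide whether libraries were paired. With the replicate block there were 127 calls, and the exact p of both ratios within pairs was 0.25, the smallest that 3 pairs allow. At these depths and this spread, a missing call does not show that a gene did not differ.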

Other observations

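Relative to basal markers, Dsc3 was lower in each p63alphaKO library than in each WT library, by an amount that depends on the markers chosen. The ratios were chosen after the values had been seen and have no test. Per 1000 CPM of the 5 summed basal markers, Dsc3 was at 41.3, 49.98 and 51.8 CPM in p63alphaKO replicates 1, 2 and 3, and at 91.8, 84.9 and 94.1 CPM in WT replicates 1, 2 and 3. The means were 47.7 ± 5.61 in p63alphaKO and 90.3 ± 4.78 in WT (SD, n = 3 each), 1.89-fold lower in p63alphaKO. WT replicate 1, which lay among the p63alphaKO libraries by CPM, lay with the other WT libraries here. Over only Itga6, Itgb4 and Col17a1, which leaves out the keratins, the ratio was 383, 479 and 506 in p63alphaKO and 683, 943 and 963 in WT, also without overlap. The 5 markers all had positive fold changes, which adds to the Dsc3 difference: it was -0.93 in log2 for the ratio (between -0.99 and -0.83 with any 1 library left out) and -0.58 by CPM. With Krt15, which fell, added to the 5 markers, Dsc3 was at 38.5, 46.1 and 47.9 CPM per 1000 CPM in p63alphaKO and at 71.1, 62.6 and 66.0 CPM in WT, still without overlap. That was 1.51-fold lower in p63alphaKO, or -0.60 in log2.

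The other 3 cadherins did not separate in this way. Dsg3 per 1000 CPM of the basal markers was 3.63 ± 0.73 CPM in p63alphaKO and 3.18 ± 1.57 CPM in WT. Per 1000 CPM of the 4 spinous markers, Dsc1 was at 6.19 ± 0.70 CPM in p63alphaKO and 6.99 ± 3.26 CPM in WT, and Dsg1a at 4.37 ± 0.40 CPM in p63alphaKO and 5.27 ± 1.51 CPM in WT (SD, n = 3 each). The groups overlapped for all 3.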
